A study of Mus musculus with 9 samples.

Results

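The genes described are 10 imprinted genes of growth control, H19, Meg3, Rian, Mirg, Dlk1, Peg3, Cdkn1c, Grb10, Mest and Plagl1, out of 53379 gene IDs counted. They were chosen by symbol, each matched to 1 Ensembl ID through the GENCODE M21 annotation of mouse genome GRCm38. All 10 passed the filter on low counts that left 17478 genes for testing. RNA was sequenced from whole knee joints of male C57BL/6 mice in 9 libraries. The 3 PC2 libraries came from joints in which the anterior cruciate ligament had been cut (ACLT) at 8 weeks of age, followed 1 week later by a lentivirus expressing PC2 injected into the joint cavity. The 3 Luc libraries came from joints with the same operation and a lentivirus expressing Luc at the same time. Both kinds of joint were collected 8 weeks after the virus. The 3 Non surgery libraries are labelled as joints without the operation, and the sources used here do not give the age of those mice or any injection. ACLT destabilises the knee and is used as a model of osteoarthritis.

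An imprinted gene is transcribed mainly from the copy inherited from 1 parent, under the control of DNA methylation set in the egg or sperm. Many imprinted genes act on fetal and early growth and fall to low levels in most adult tissues, with skeletal muscle among the tissues where H19 persists. In mice the maternal copy is the active one for the noncoding RNAs H19, Meg3, Rian and Mirg and for Cdkn1c and, outside the brain, Grb10. The paternal copy is the active one for Dlk1, Peg3, Mest and Plagl1. The counts do not separate the parental copies, so total RNA from each gene was measured and imprinting itself was not.

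Library totals in genes were 18402410 to 19004316 counts in PC2, 17835989 to 18649989 in Luc and 17859648 to 18679743 in Non surgery libraries. Each group was 1 mixture of RNA, from which 3 technical repeats were sequenced per the labels, so every p-value rests on technical spread and mouse-to-mouse variation was not measured. The libraries are whole-joint RNA, in which fewer cells of a type and less RNA per cell cannot be told apart. Muscle RNA was abundant in every group: the summed level of 18 fast muscle genes was 37028 to 37124 CPM (counts scaled to library size) in PC2, 31768 to 32248 in Luc and 77597 to 80324 in Non surgery libraries. The 10 connective tissue fibroblast genes summed to 16414 to 16860 CPM in PC2, 16721 to 16972 in Luc and 3992 to 4408 in Non surgery libraries. The 15 cartilage genes summed to 8839 to 8988 CPM in PC2, 5429 to 5568 in Luc and 966 to 1079 in Non surgery libraries. No gene of these 3 lists was at 0 in all libraries.

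Operated joints with the control virus held more RNA of most of these genes than unoperated joints. In comparisons with Non surgery, operation, virus, RNA mixture and a possible difference in age cannot be told apart. Meg3, Rian, Mirg, Peg3, Grb10, Mest and Plagl1 were each at least 2-fold higher in Luc libraries compared with Non surgery, and H19 was 1.84-fold lower. Genes were tested with edgeR's quasi-likelihood test and called at a Benjamini-Hochberg adjusted p under 0.05. In Luc against Non surgery, 7 of the 10 rose, 1 fell and 2 did not pass, where 58.8% of all genes tested were called, 31.1% higher and 27.7% lower. At least 2-fold higher and called were 7 of the 10, where 9.43% of all genes were, and 15.7% passed that limit in either direction. With 1 library left out the count of 7 ranged from 5 to 7, and with median-of-ratios (RLE) scaling it was 6. Peg3 and Mest lay near the limit, with lowest log2 fold changes of 0.977 and 0.939 when 1 library was left out. The libraries did not overlap for the same 8 genes that were called, against 62.9% of all genes tested. The median log2 fold change was 1.16 over the 10 genes and 0.02 over all genes tested.

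PC2 against Luc gave smaller differences in both directions. Mirg, Meg3 and Cdkn1c rose, H19, Mest, Grb10 and Plagl1 fell, and Rian, Peg3 and Dlk1 did not pass, where 34.7% of all genes tested were called, 16.1% higher and 18.6% lower. Mirg alone of the 10 differed at least 2-fold, where 3.31% of all genes did. The median was -0.03 over the 10 genes and 0.01 over all genes, and the libraries did not overlap for the 7 called genes, against 48% of all genes. In PC2 against Non surgery, 8 rose, H19 fell and Dlk1 did not pass, where 62.7% of all genes were called, 31.5% higher and 31.2% lower. The libraries did not overlap for those 9 genes, against 66% of all genes. In this comparison, 5 were at least 2-fold higher and 1 at least 2-fold lower, where 16.4% of all genes passed that limit in either direction. The 3 comparisons share libraries, so each is given by its own values.

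**Figure D1:**
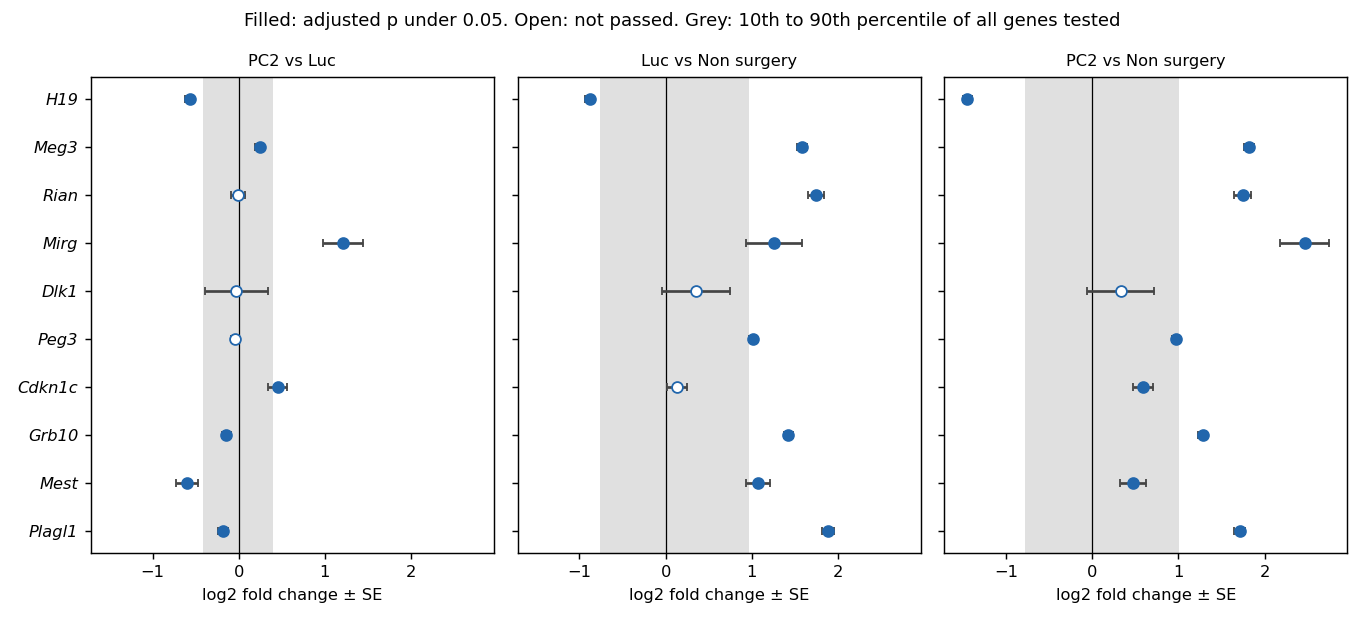
Log2 fold change ± SE (x axis) of the 10 genes (rows) in PC2 against Luc, Luc against Non surgery and PC2 against Non surgery, with filled points for an adjusted p under 0.05 and a grey band from the 10th to the 90th percentile of all 17478 genes tested. In the middle panel 7 genes lie right of the band's upper end and H19 lies to the left of its lower end, while in the left panel Mirg stands furthest to the right at 1.21.

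H19 is a noncoding RNA next to the growth factor gene Igf2, made in fetal tissues and in skeletal muscle, and the host of miR-675. Its gene lies at chr7:142575529-142578143 on the minus strand, and both mature miRNAs lie inside it. They are shown because the H19 RNA counted here is also their precursor. The sequences are from RefSeq (GRCm38.p6), with the seed, bases 2 to 8, in capitals, and the miRNAs themselves were not measured.
miR-675-5p: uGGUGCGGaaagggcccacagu
miR-675-3p: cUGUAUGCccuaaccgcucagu

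H19 had 32.9, 35.8 and 35.0 CPM in the PC2 libraries, against 49.8, 54.1 and 49.999 CPM in the Luc libraries and 94.5, 99.2 and 90.2 CPM in the Non surgery libraries. The 3 groups did not overlap, with PC2 lowest and Non surgery highest. H19 fell 1.48-fold in PC2 against Luc (log2 fold change -0.57 ± 0.053 SE, adjusted p = 4.65e-07). It fell 1.84-fold in Luc against Non surgery (-0.88 ± 0.050, adjusted p = 1.34e-10). In PC2 against Non surgery, H19 fell 2.74-fold (-1.45 ± 0.052, adjusted p = 2.88e-13).

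Muscle genes moved beside H19 in both comparisons with Non surgery, and most moved against it in PC2 against Luc. In Luc against Non surgery, 18 of 18 fast muscle genes fell (median -1.22 on the log2 scale) and 11 of 11 slow muscle genes fell (median -3.23). In PC2 against Non surgery, 18 of 18 fast muscle genes (median -0.998) and 11 of 11 slow muscle genes (median -2.56) fell as well. The slow muscle list also holds Myh2, the myosin of fast type IIa fibres, and Mb and Actn2, so it does not measure slow fibres alone. In PC2 against Luc, where H19 fell, 14 of 18 fast muscle genes rose and 2 fell (median 0.24), and 9 of 11 slow muscle genes rose and 1 fell (median 0.42). Of all genes tested, 27.7% fell in Luc and 31.2% in PC2 against Non surgery. In PC2 against Luc, 16.1% of all genes rose and 18.6% fell. Myh4, the main fast myosin heavy chain, averaged 9249 CPM in PC2, 8037 CPM in Luc and 17534 CPM in Non surgery libraries. Of the 10 genes listed for muscle stem cells and regeneration, 6 were tested. Of these, 1 rose and 4 fell in Luc against Non surgery, and none passed in PC2 against Luc (median 0.15). The part of muscle content in the H19 difference was not tested. Igf2, 88.7 kb from H19 by start position, had 5, 6 and 2 counts in PC2, 6, 8 and 9 in Luc and 10, 5 and 10 in Non surgery libraries. It was not tested, and 64.6% of its exon bases are shared with other annotated genes, so its reads may be undercounted.

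H19 took a smaller part of the reads of the 10 genes in both operated groups. The 10 genes summed to 385.4 ± 10.6 CPM in PC2, 403.3 ± 4.60 CPM in Luc and 229.6 ± 8.06 CPM in Non surgery libraries (SD, n = 3 each). H19 was 8.96% ± 0.17 of that sum in PC2, 12.7% ± 0.64 in Luc and 41.2% ± 0.80 in Non surgery libraries.

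**Figure D2:**
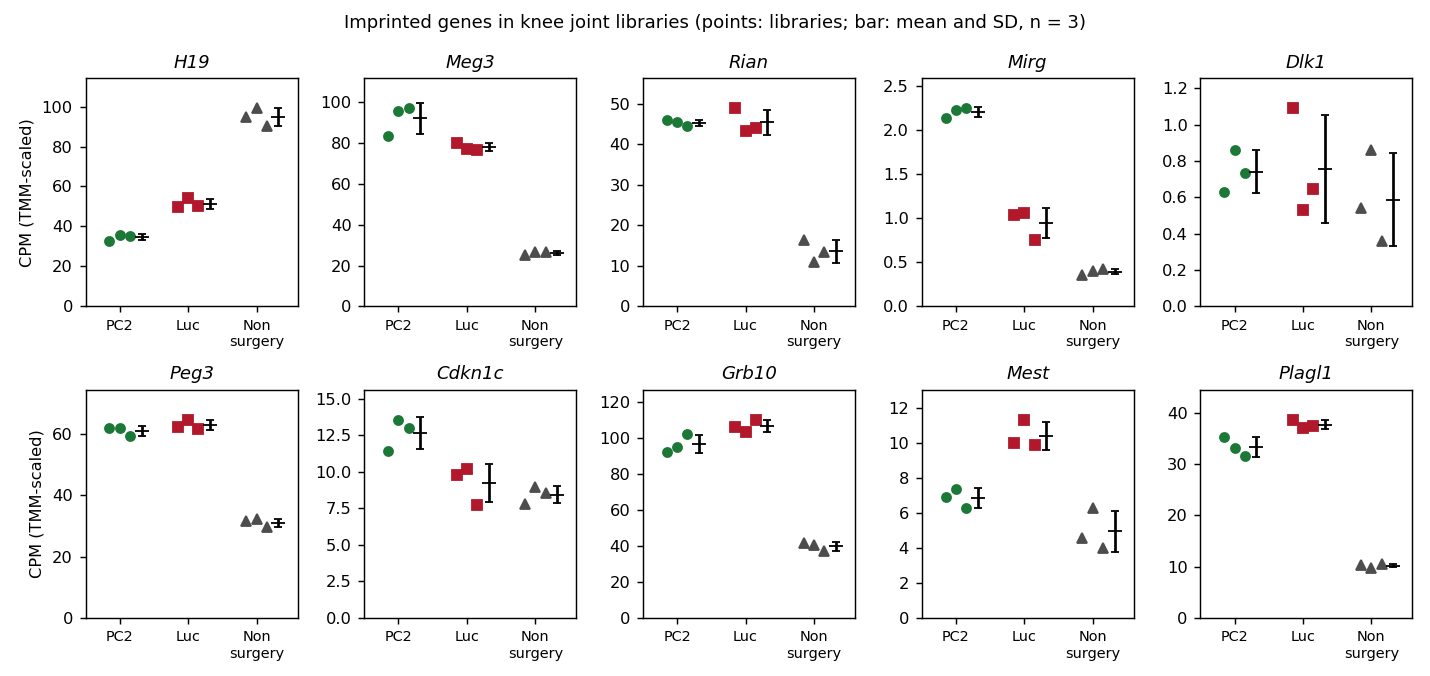
CPM of each of the 10 genes (1 panel each, y axis) in the 3 PC2, 3 Luc and 3 Non surgery libraries, with points for libraries and bars for the group mean ± SD. H19 is highest in Non surgery at 94.6 CPM, while Meg3, Rian, Peg3, Grb10 and Plagl1 are lowest there.

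Meg3, Rian and Mirg are noncoding RNAs of the Dlk1 and Meg3 imprinted region of chromosome 12, thought in mice to be read from the maternal copy as 1 long unit that carries many small RNAs. Meg3 lies at chr12:109541001-109571726, Rian at chr12:109603940-109661716 and Mirg at chr12:109729764-109749460, all on the plus strand. Rian is a host of box C/D small nucleolar RNAs, and Mirg of a large miRNA cluster. Dlk1, at chr12:109452823-109463336, encodes a membrane protein of the Delta family that restrains fat cell formation and is read from the paternal copy. By start position, Dlk1 lies 88.2 kb before Meg3, Meg3 62.9 kb before Rian and Rian 125.8 kb before Mirg. For Meg3 the table holds 2 RefSeq starts, of which the upstream one is shown, and for Rian and Mirg 1 each. The 300 bases around these starts, 250 before and 50 after, are shown as a description, and no link to the changes in RNA was tested. The windows are from RefSeq (GRCm38.p6, plus strand) with each CG, the letters that mammalian DNA methylation uses, in capitals.
Meg3 window, chr12:109540746-109541045: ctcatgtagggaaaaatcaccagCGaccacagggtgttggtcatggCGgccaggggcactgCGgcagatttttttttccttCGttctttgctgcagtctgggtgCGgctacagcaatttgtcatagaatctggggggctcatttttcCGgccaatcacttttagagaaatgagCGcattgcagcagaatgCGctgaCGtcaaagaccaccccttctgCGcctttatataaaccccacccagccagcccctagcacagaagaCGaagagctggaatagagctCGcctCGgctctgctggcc
Rian window, chr12:109603695-109603994: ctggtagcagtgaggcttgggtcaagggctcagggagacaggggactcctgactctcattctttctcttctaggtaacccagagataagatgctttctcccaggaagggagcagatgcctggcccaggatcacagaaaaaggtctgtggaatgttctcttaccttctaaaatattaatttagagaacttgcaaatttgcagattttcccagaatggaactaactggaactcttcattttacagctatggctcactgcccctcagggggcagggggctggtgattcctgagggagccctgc
Mirg window, chr12:109734731-109735030: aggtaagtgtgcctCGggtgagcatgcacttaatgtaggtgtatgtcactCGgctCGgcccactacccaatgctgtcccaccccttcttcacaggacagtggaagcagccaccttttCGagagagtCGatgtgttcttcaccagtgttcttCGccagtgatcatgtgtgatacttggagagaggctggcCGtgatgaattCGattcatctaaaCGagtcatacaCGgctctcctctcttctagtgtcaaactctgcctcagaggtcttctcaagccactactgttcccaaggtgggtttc

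The upstream Meg3 window holds 13 CG pairs, the Mirg window 10 and the Rian window 0, where the median over 32851 such windows of all genes is 7. The second Meg3 window, at chr12:109545148-109545447, holds 1 CG pair and no TATAAA. The upstream Meg3 window also holds the letters TATAAA on each strand at overlapping places, 2 matches in all, which 13.6% of all windows hold on either strand. The Mirg window starts inside the longer gene model used for counting. Of the mature miRNAs in the RefSeq entries used here, it holds miR-668-5p, miR-668-3p and miR-485-3p. These are descriptions of letters, and neither methylation nor transcription start was measured.

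Meg3 had 83.5, 95.9 and 97.1 CPM in the PC2 libraries, against 80.1, 77.0 and 76.7 CPM in the Luc libraries and 24.97, 26.5 and 26.7 CPM in the Non surgery libraries. Every PC2 library was above every Luc library, though the lowest PC2 library stood close to the highest Luc library. Meg3 rose 1.18-fold in PC2 against Luc (log2 fold change 0.24 ± 0.053 SE, adjusted p = 0.00211) and 2.99-fold in Luc against Non surgery (1.58 ± 0.059, adjusted p = 4.69e-13).

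Rian had 45.9, 45.6 and 44.4 CPM in the PC2 libraries, against 48.9, 43.4 and 44.0 CPM in the Luc libraries and 16.4, 10.9 and 13.3 CPM in the Non surgery libraries. PC2 and Luc libraries overlapped, and both groups lay above Non surgery. The log2 fold change of Rian in PC2 against Luc was close to 0 (95% interval -0.16 to 0.16, adjusted p = 0.978), and in Luc against Non surgery Rian rose 3.36-fold (1.75 ± 0.095, adjusted p = 7.21e-11).

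Mirg had few counts, 41, 44 and 43 counts in the PC2 libraries, 20, 20 and 14 counts in the Luc libraries and 6, 7 and 7 counts in the Non surgery libraries. The 3 groups did not overlap, and PC2 was highest. In CPM these were 2.21 ± 0.057 in PC2, 0.949 ± 0.17 in Luc and 0.394 ± 0.031 in Non surgery libraries (SD, n = 3 each). Mirg rose 2.32-fold in PC2 against Luc (log2 fold change 1.21 ± 0.23 SE, adjusted p = 0.000762) and 2.39-fold in Luc against Non surgery (1.26 ± 0.32, adjusted p = 0.00324). Over all settings tried, its log2 fold change in PC2 against Luc stayed between 1.07 and 1.29 and remained called.

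Dlk1 was at the edge of detection, with 12, 17 and 14 counts in the PC2 libraries, 21, 10 and 12 counts in the Luc libraries and 9, 15 and 6 counts in the Non surgery libraries. All 3 groups overlapped. A difference was not detectable at this depth in PC2 against Luc (log2 fold change -0.03, 95% interval -0.75 to 0.69, adjusted p = 0.966) or in Luc against Non surgery (0.36, -0.41 to 1.12, adjusted p = 0.461). Those intervals leave room for a change of the size seen for Cdkn1c in PC2 against Luc.

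Ratios within a library, which do not depend on scaling between libraries, set the noncoding RNAs of the region against each other. Mirg counts per Meg3 count were 0.0257, 0.0233 and 0.0232 in PC2, 0.0130, 0.0137 and 0.00982 in Luc and 0.0144, 0.0152 and 0.0157 in Non surgery libraries. The PC2 libraries were above all others, and the Luc libraries were below all Non surgery libraries. The log2 difference of this ratio was 0.997 ± 0.16 (SE) in PC2 against Luc. Its exact two-sided permutation p was 0.1, the smallest that 3 libraries against 3 allow. In Luc against Non surgery the log2 difference was -0.33 ± 0.15 (exact permutation p = 0.1). Rian counts per Meg3 count were 0.494 ± 0.049 in PC2, 0.582 ± 0.025 in Luc and 0.523 ± 0.12 in Non surgery libraries (SD, n = 3 each). The PC2 libraries were all below the Luc libraries in that ratio, by a log2 difference of -0.24 ± 0.089 (exact permutation p = 0.1), and Luc and Non surgery libraries overlapped (exact permutation p = 0.5). Within the region, Mirg thus stood higher relative to both Meg3 and Rian in PC2 than in Luc libraries, since Mirg per Rian was 0.0488 ± 0.0020 in PC2 and 0.0209 ± 0.0036 in Luc libraries.

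**Figure D3:**
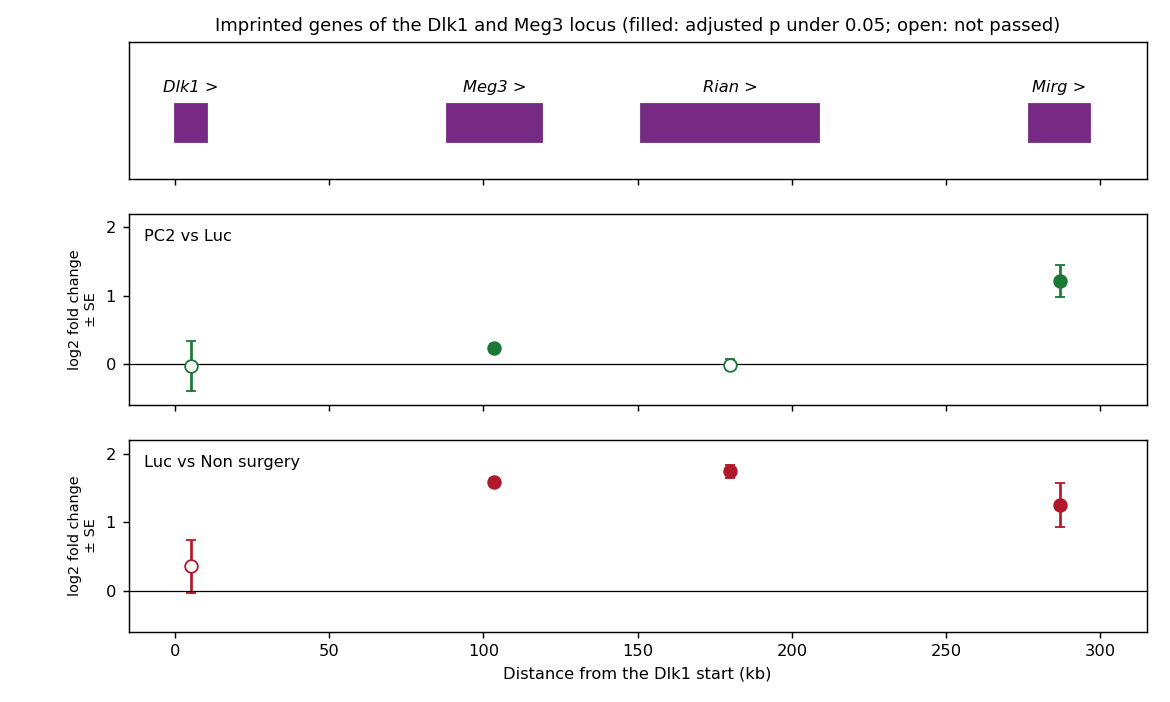
Positions of Dlk1, Meg3, Rian and Mirg along chromosome 12 (x axis, kb from the Dlk1 start; boxes are gene spans) above the log2 fold change ± SE of each gene in PC2 against Luc and in Luc against Non surgery (y axes, filled for an adjusted p under 0.05). The 3 noncoding RNAs lie between 1.26 and 1.75 in Luc against Non surgery, and in PC2 against Luc Mirg at 1.21 stands above Meg3 at 0.24 and Rian near 0.

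The mature miRNAs counted here are those in the RefSeq entries used, where Mir485 has miR-485-3p alone. By position and strand, the Meg3 gene holds 3 mature miRNAs of 2 miRNA genes, Rian 6 of 3 and Mirg 26 of 14. None of these was measured as a mature miRNA. Among all these miRNAs and those of H19 and Mest, a single seed occurred more than once, in miR-453 and miR-496a-5p, both in Mirg. They are printed with 1 miRNA each from Meg3 and Rian for comparison (RefSeq, GRCm38.p6, seed in capitals).
miR-453 (Mirg): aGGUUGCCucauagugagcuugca
miR-496a-5p (Mirg): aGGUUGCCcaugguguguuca
miR-770-5p (Meg3): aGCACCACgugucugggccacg
miR-370-3p (Rian): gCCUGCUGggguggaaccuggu

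Grb10, Plagl1, Peg3 and Mest shared 1 pattern, higher in both operated groups than in Non surgery libraries. Grb10 is an adaptor protein that restrains insulin and growth factor receptor signalling, and lies at chr11:11930508-12038683. It had 92.4, 94.9 and 102.2 CPM in the PC2 libraries, against 106.2, 103.5 and 110.2 CPM in the Luc libraries and 41.8, 40.6 and 36.8 CPM in the Non surgery libraries. The Non surgery libraries stood far below the others, while the highest PC2 library came close to the lowest Luc library. Grb10 rose 2.68-fold in Luc against Non surgery (log2 fold change 1.42 ± 0.053 SE, adjusted p = 4.61e-13) and fell 1.11-fold in PC2 against Luc (-0.14 ± 0.049, adjusted p = 0.033). The second call was lost without Luc replicate 1 (adjusted p = 0.0661), Luc replicate 3 (0.142), PC2 replicate 1 (0.149) or PC2 replicate 2 (0.105), and with DESeq2 (0.0638).

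Plagl1, also called Zac1, encodes a zinc finger transcription factor that slows the cell cycle and is placed at the centre of a network of imprinted genes in mouse. It lies at chr10:13060504-13131694. Plagl1 had 35.4, 33.1 and 31.5 CPM in the PC2 libraries, against 38.7, 37.0 and 37.4 CPM in the Luc libraries and 10.4, 9.76 and 10.4 CPM in the Non surgery libraries. All PC2 and Luc libraries lay above all Non surgery libraries by a wide margin, and PC2 lay slightly below Luc. It rose 3.70-fold in Luc against Non surgery (log2 fold change 1.89 ± 0.066 SE, adjusted p = 2.28e-13). The 1.13-fold fall in PC2 against Luc (-0.18 ± 0.057, adjusted p = 0.0232) was lost without Luc replicate 1 (adjusted p = 0.0989), Luc replicate 3 (0.0543), PC2 replicate 2 (0.0786) or PC2 replicate 3 (0.115), and with DESeq2 (0.1003).

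Peg3, at chr7:6703892-6730431, encodes a large zinc finger protein studied in maternal behaviour, muscle stem cells and cell death. It had 62.1, 62.0 and 59.3 CPM in the PC2 libraries, against 62.5, 64.8 and 61.6 CPM in the Luc libraries and 31.6, 32.1 and 29.6 CPM in the Non surgery libraries. PC2 and Luc libraries overlapped, and all 6 lay above the Non surgery libraries. Peg3 rose 2.02-fold in Luc against Non surgery (log2 fold change 1.02 ± 0.048 SE, adjusted p = 1.09e-11). In PC2 against Luc its 95% interval was -0.13 to 0.05 (adjusted p = 0.512), a narrow one, though a p above the threshold does not show that the groups were alike.

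Mest, at chr6:30723547-30748465, encodes a hydrolase-like protein of the endoplasmic reticulum that rises in growing fat tissue, and hosts miR-335 in an intron. It had 6.91, 7.40 and 6.29 CPM in the PC2 libraries, against 10.02, 11.4 and 9.90 CPM in the Luc libraries and 4.55, 6.26 and 4.02 CPM in the Non surgery libraries. Luc was highest, PC2 lay between, and no groups overlapped, though the lowest PC2 library was nearly level with the highest Non surgery library. Mest fell 1.52-fold in PC2 against Luc (log2 fold change -0.60 ± 0.13 SE, adjusted p = 0.00186) and rose 2.10-fold in Luc against Non surgery (1.07 ± 0.14, adjusted p = 4.87e-06). Its rise in PC2 against Non surgery (0.47 ± 0.15, adjusted p = 0.011) was lost without Non surgery replicate 3 (adjusted p = 0.0669). Of the exon bases of Mest, 23.1% are shared with Copg2 on the other strand, and reads there cannot be told apart unless counting used strand, which the sources used here do not say. Copg2 fell by 0.23 on the log2 scale in PC2 against Luc (adjusted p = 0.00165) and did not pass in Luc against Non surgery (0.04, adjusted p = 0.539), where scaling by library size only gave a call (0.20, adjusted p = 0.0023).

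Cdkn1c, at chr7:143458339-143461050, encodes p57, an inhibitor of cyclin-dependent kinases that stops the cell cycle during development. It had 11.4, 13.6 and 12.99 CPM in the PC2 libraries, against 9.81, 10.2 and 7.75 CPM in the Luc libraries and 7.78, 8.96 and 8.52 CPM in the Non surgery libraries. All PC2 libraries lay above all others, and Luc and Non surgery libraries overlapped. Cdkn1c rose 1.37-fold in PC2 against Luc (log2 fold change 0.45 ± 0.11 SE, adjusted p = 0.00413) and did not pass in Luc against Non surgery (0.14 ± 0.12, adjusted p = 0.338). Scaling by library size only moved the second value to 0.30 with an adjusted p of 0.0373. That scaling also moved the median of all genes to 0.18 in Luc against Non surgery, so the change relative to that median was close to the one above. Of the exon bases of Cdkn1c, 30.7% are shared with the antisense gene Gm44732, which had 0 counts in all 9 libraries. Unless counting used strand, reads in the shared bases would be assigned to neither gene, so Cdkn1c may be undercounted.

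Levels can be compared between genes after division by exon length, as CPM per kb of all annotated exon bases, which understates genes whose short isoforms predominate. Genes with shared exon bases, such as Cdkn1c and Mest, may be understated too. On that scale H19 was the most abundant of the 10 in every group, at 14.0 ± 0.61 CPM per kb in PC2, 20.9 ± 0.99 in Luc and 38.5 ± 1.8 in Non surgery libraries (SD, n = 3 each). Grb10 came second in every group, at 10.6 ± 0.56 CPM per kb in PC2, 11.7 ± 0.37 in Luc and 4.37 ± 0.28 in Non surgery libraries. In Non surgery libraries its level overlapped with that of Cdkn1c, which was 4.13 ± 0.29 CPM per kb. In PC2 libraries Cdkn1c was next at 6.21 ± 0.55 CPM per kb, followed by Meg3 at 5.09, Peg3 at 4.59 and Plagl1 at 4.26, whose neighbours overlapped in that order. In Luc libraries Plagl1, Peg3, Cdkn1c and Meg3 held the places after Grb10 between 4.82 and 4.31 CPM per kb, each overlapping the next. Rian and Mest followed in both operated groups, at 1.74 to 2.64 CPM per kb. Mirg and Dlk1 were the lowest in every group, at most 0.303 CPM per kb.

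**Figure D4:**
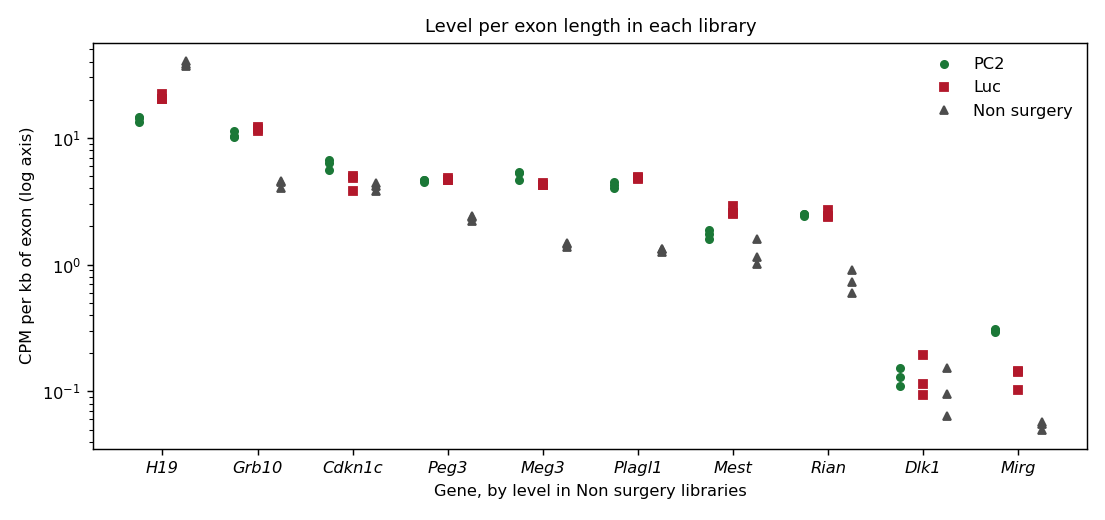
Level in CPM per kb of exon (y axis, log scale) of the 10 genes (x axis, ordered by their level in Non surgery), with 1 point for each of the 3 PC2, 3 Luc and 3 Non surgery libraries. H19 is at the top in all groups, at a mean of 14.0 in PC2, 20.9 in Luc and 38.5 in Non surgery, and Mirg and Dlk1 are at the bottom.

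By the active parental copy, the 6 maternally expressed genes held 3 that rose and 2 that fell in PC2 against Luc, and the 4 paternally expressed genes held 2 that fell and 2 that did not pass. In Luc against Non surgery, 4 of 6 maternally expressed genes rose and 1 fell, and 3 of 4 paternally expressed genes rose and 1 did not pass. Both directions thus occurred among maternally expressed genes in each comparison. Of all genes tested, 16.1% rose and 18.6% fell in PC2 against Luc, and 31.1% rose and 27.7% fell in Luc against Non surgery. Genes of several cell types moved beside the 7 that rose in Luc against Non surgery: there 10 of 10 fibroblast genes rose (median log2 fold change 2.02), as did 14 of 15 cartilage genes (2.15), 11 of 11 osteoblast and osteocyte genes (1.55), 8 of 9 endothelial genes (0.47) and 5 of 8 smooth muscle and pericyte genes (0.20), a list in which 2 fell. Of the adipocyte genes 3 rose and 4 fell (-0.04), and of the Schwann cell genes 2 rose and 3 fell (-0.29). Dcn, the small proteoglycan decorin of fibroblasts, averaged 2747 CPM in PC2, 2450 CPM in Luc and 834 CPM in Non surgery libraries. It is 1 of the 4 fibroblast genes that rose in PC2 against Luc. Col3a1, 1 of the 6 that fell there, averaged 5307 CPM in PC2, 5969 CPM in Luc and 769 CPM in Non surgery libraries. In PC2 against Luc, 4 fibroblast genes rose and 6 fell (median -0.13), 5 osteoblast and osteocyte genes rose and 4 fell (-0.07), 4 smooth muscle and pericyte genes rose and 1 fell (0.24), 15 of 15 cartilage genes rose (0.86), 8 of 9 adipocyte genes rose (0.67), 5 of 7 Schwann cell genes rose (0.44) and 8 of 9 endothelial genes fell (-0.25). The part of these lists in the differences of the imprinted genes was not tested.

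Other genes known as imprinted in mice did not move as one. Of 40 on a list written from general knowledge, 31 were tested. Whether each of them is imprinted in joint tissue was not measured. In PC2 against Luc 9 rose and 2 fell, which is 35.5% of those tested against 34.7% of all genes, and in Luc against Non surgery 12 rose and 9 fell, 67.7% against 58.8%. Their median log2 fold change was 0.05 in PC2 against Luc and 0.09 in Luc against Non surgery. The first count was 7 without Luc replicate 1, Luc replicate 3 or PC2 replicate 3.

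The largest difference among them was in Nnat, a small membrane protein gene of neurons and endocrine cells read from the paternal copy. Nnat had 21.1, 18.7 and 20.9 CPM in the PC2 libraries, against 4.78, 6.13 and 4.25 CPM in the Luc libraries and 5.93, 6.72 and 4.92 CPM in the Non surgery libraries. The PC2 libraries stood above all others, while Luc and Non surgery libraries overlapped. Nnat rose 3.998-fold in PC2 against Luc (log2 fold change 1.999 ± 0.12 SE, adjusted p = 3.55e-09).

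Ndn, which encodes the growth-restraining protein necdin, had 17.0, 14.9998 and 12.5 CPM in the PC2 libraries, against 7.94, 8.61 and 7.97 CPM in the Luc libraries and 4.25, 5.63 and 3.78 CPM in the Non surgery libraries. The 3 groups did not overlap, the order seen for Mirg. Its log2 fold change was 0.86 ± 0.13 in PC2 against Luc (adjusted p = 6.04e-05) and 0.84 ± 0.15 in Luc against Non surgery (adjusted p = 0.000156).

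Slc38a4, an amino acid transporter gene, went the opposite way in the 2 comparisons, with 32.2 ± 1.6 CPM in PC2, 15.9 ± 0.45 in Luc and 38.0 ± 2.6 in Non surgery libraries. It rose 2.02-fold in PC2 against Luc (log2 fold change 1.02, adjusted p = 7.56e-09) and fell 2.39-fold in Luc against Non surgery (-1.26, adjusted p = 4.63e-11). Asb4 shared those directions, with 4.43 ± 0.26 CPM in PC2, 3.13 ± 0.39 in Luc and 10.1 ± 0.074 in Non surgery libraries. Sgce, a sarcoglycan gene, rose by 0.83 in Luc against Non surgery (adjusted p = 1.08e-07) and by 0.23 in PC2 against Luc (adjusted p = 0.0237), a call lost without Luc replicate 1 (0.0955), Luc replicate 3 (0.0532), PC2 replicate 1 (0.0814) or PC2 replicate 3 (0.0649). In Luc against Non surgery, Kcnq1 rose by 1.596 ± 0.37 (SE, adjusted p = 0.00143), on few counts. It had 18, 21 and 26 counts in Luc and 10, 4 and 5 in Non surgery libraries. Tssc4 rose by 0.60 and Airn by 0.56 in that comparison, and Snrpn, 34.1% of whose exon bases are shared with other annotated genes, fell by 0.98. Slc22a18 rose by 0.65 there (adjusted p = 0.036), with at most 34 counts in any library, and its call was lost without Non surgery replicate 2 (0.0551) or 3 (0.142) or Luc replicate 2 (0.0624) or 3 (0.0945), with no filter (0.0728), with only the 6 libraries of the comparison (0.0553) and with DESeq2 (0.112). Kcnq1, Tssc4, Airn, Snrpn and Slc22a18 did not pass in PC2 against Luc.

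Zim1, next to Peg3, averaged 5.45 CPM in PC2, 4.65 CPM in Luc and 5.09 CPM in Non surgery libraries and passed in no comparison. Kcnq1ot1, the noncoding RNA of the Cdkn1c domain, averaged 7.94 CPM in PC2, 8.94 CPM in Luc and 8.67 CPM in Non surgery libraries and passed in none. Rtl1, between Meg3 and Rian, had at most 5 counts in any library and was at 0 in all 3 Non surgery libraries. Usp29, 0.147 kb from Peg3 by start position, had 8 to 13 counts in PC2, 7 to 10 in Luc and 4 to 5 in Non surgery libraries.

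**Figure D5:**
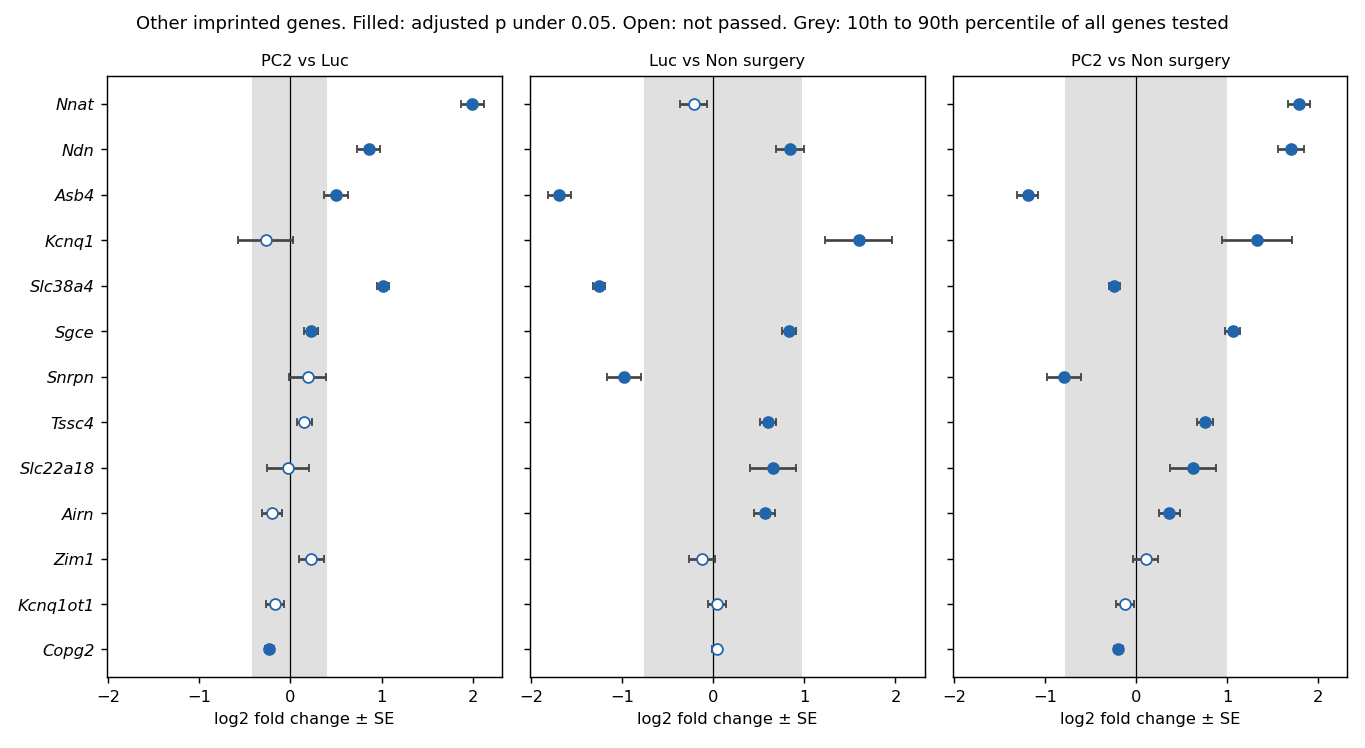
Log2 fold change ± SE (x axis) of named imprinted genes other than the 10 (rows) in PC2 against Luc, Luc against Non surgery and PC2 against Non surgery, filled for an adjusted p under 0.05, with a grey band from the 10th to the 90th percentile of all genes. Nnat at 1.999, Slc38a4 at 1.02 and Ndn at 0.86 lie furthest to the right in PC2 against Luc, and Asb4 and Slc38a4 change side in Luc against Non surgery.

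Genes with the most similar course over the 3 groups were found by the distance between centred group means of log2(CPM + 0.1), among 11909 genes with a given name and at least 5 CPM in a group. Over just 3 group means many genes resemble any one, so the names are a description. Nearest to H19 was Vgll2, a muscle transcription cofactor, at a distance of 0.040, with 10.3 ± 1.2 CPM in PC2, 14.6 ± 0.65 in Luc and 27.6 ± 4.2 in Non surgery libraries. Per2, a gene of the circadian clock, came next at 0.052. Nearest to Meg3 was Boc, a receptor of the hedgehog pathway, at 0.016, with 75.8 ± 2.7 CPM in PC2, 64.2 ± 1.1 in Luc and 21.8 ± 1.8 in Non surgery libraries. Rian had Pcdhb22 (0.014) and Cspg4 (0.017), a proteoglycan of pericytes and progenitor cells, as its nearest genes. For Mirg the nearest was Fxyd2, a regulator of the sodium pump, at 0.044, with 18.8 ± 0.77 CPM in PC2, 8.68 ± 1.1 in Luc and 3.96 ± 1.1 in Non surgery libraries. The nearest to Plagl1 was Tpbg (0.015), to Grb10 Pcdhgb6 (0.013), to Peg3 Galnt18 (0.016), to Mest Itgav (0.031), an integrin subunit, and to Cdkn1c Anapc13 (0.0067), a subunit of the anaphase-promoting complex. For Dlk1, with 6 to 21 counts a library, Caskin2 (0.0028) was nearest, and its course is too uncertain to read.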

How the data were processed

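RNA of knee joints was measured by RNA sequencing. TRIzol extraction, DNA removal and library kit are given per the labels: NEBNext Ultra RNA libraries were made from 1 RNA mixture per group as 3 technical repeats. The sources used here do not give the number of mice per mixture. The files deposited by the authors hold unnormalized counts of reads for each Ensembl ID, with 5 HTSeq summary lines that were left out of library sizes and tests. HISAT2, HTSeq, DESeq2 and the mm10 build appear, with no version, per the submitters' processing notes, and the sources used here give neither annotation release nor strand setting. Reads outside genes were 8.11% ± 0.06 in PC2, 9.08% ± 0.18 in Luc and 7.33% ± 0.04 in Non surgery libraries (SD, n = 3 each), and reads assigned to no single gene 6.02% ± 0.07 in PC2, 5.81% ± 0.15 in Luc and 6.52% ± 0.12 in Non surgery libraries. Such ambiguous reads lower the counts of overlapping genes.

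Symbols, positions and exon lengths came from GENCODE M21 (GRCm38), which held 53274 of 53379 IDs. Counts were tested with edgeR 4.0.16 in R 4.3.3: 1 quasi-likelihood fit of all 9 libraries on group, TMM factors, filterByExpr with a minimum count of 10, two-sided contrasts and Benjamini-Hochberg adjustment over 17478 genes. SE is the absolute log2 fold change divided by the root of F. CPM used TMM-scaled totals. Within groups, libraries differed by a chi-square of at least 3.94 per degree of freedom, so none was counted as a copy. The fit was also run on simulated counts with known changes. Their spread was that of these technical repeats, so that run does not bear on differences between mice. Named genes were the 10 genes, up to 10 other imprinted genes with the largest called change and at least 1 CPM in a group, neighbours at the loci, and the 3 genes nearest in pattern; 1 gene that the rule also names is not reported here. The alternatives were other scaling, no filter, DESeq2 1.42.0, fewer libraries and a replicate block. The genes and lists were chosen with earlier results of these data known.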

Additional observations from a re-analysis of the deposited data

How the results depend on the processing

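The counts of the 10 genes called stayed within 1.5 times the reported counts under RLE, library-size-only and muscle-free scaling, no filter, 6-library fits, DESeq2, the replicate block and leaving out each library. The count of other imprinted genes called in PC2 against Luc did so under all but 3 of these, ranging from 7 to 11 with 1 library left out (7 without Luc replicate 1, Luc replicate 3 or PC2 replicate 3). Of the 10 genes, 5 to 7 were called in PC2 against Luc with 1 library left out and 5 by DESeq2. With the replicate block, 7 of the 10 were called in PC2 against Luc, 8 in Luc against Non surgery and 9 in PC2 against Non surgery, the same counts as without it; same-numbered libraries correlated between -0.169 and 0.165 over 12233 genes, and the labels give the numbers to technical repeats, so they were not taken to pair the libraries. The block ended the calls of Slc22a18 in Luc and in PC2 against Non surgery (adjusted p = 0.0524 and 0.0595) and no other call of a named gene. Values near 0 changed sign: Rian in PC2 against Luc was 0.0082 with RLE and 0.0082 with DESeq2, and with library size only Zim1 in Luc against Non surgery was 0.032 and Kcnq1ot1 in PC2 against Non surgery 0.032. With 1 library left out, PC2 against Luc ranged from -0.035 to 0.054 for Rian, -0.23 to 0.34 for Dlk1 and -0.088 to 0.041 for Slc22a18, and Luc against Non surgery from -0.011 to 0.74 for Dlk1, -0.0083 to 0.12 for Kcnq1ot1 and -0.0050 to 0.061 for Copg2. The cause was not tested. Library size only also moved the median of all genes to 0.18 in Luc and 0.17 in PC2 against Non surgery, from 0.02 and 0.01, and ended the calls of Slc38a4 (adjusted p = 0.252) and Copg2 (0.521) in PC2 against Non surgery. Depth limits Dlk1 and Mirg, with 6 to 44 counts a library, and also Kcnq1, with at most 26, and Slc22a18, with at most 34. Technical repeats of 1 mixture leave differences between mice unmeasured.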
